A study of Mus musculus with 6 samples.

Results

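The genes described here are 52 genes that drive or mark the cell division cycle, measured by RNA sequencing in regulatory T cells of mouse bone marrow. They were picked by name from the 47643 genes of the deposited tables, and all 52 were found. They were sorted by the stage at which their products act: 8 genes of G1 and of entry into S phase, 19 genes of DNA replication in S phase, and 25 genes of mitosis and its preparation. The cells were sorted by flow cytometry for CD4 and for a GFP reporter of FOXP3, the transcription factor that defines regulatory T cells. Of the 6 libraries, 3 are from mice that had been given Vk*MYC myeloma cells by injection (replicates 3, 4 and 5) and 3 from control mice (replicates 1, 3 and 5). Vk*MYC is a transgenic mouse model of multiple myeloma, a plasma cell cancer, in which MYC is switched on in germinal-centre B cells. The labels used here state neither strain, age and sex nor what the control mice received. The FOXP3 reporter was shared by both groups.

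A cell leaves rest when D-type cyclins activate the kinases CDK4 and CDK6, which release E2F transcription factors from the retinoblastoma protein. E2F factors then switch on the replication genes, among them those of the MCM helicase that unwinds DNA. Later in the cycle CDK1 with cyclins A and B, the Aurora and Polo kinases, kinesin motors and the spindle checkpoint carry the cell through mitosis, and most of their genes are silent in resting cells. Regulatory T cells are known to divide in vivo more than conventional CD4+ T cells do.

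Total expected counts per library lay between 10240620 and 13314631, and 13235 genes had enough reads to be tested, all 52 members among them. Levels are CPM (expected counts scaled to a common library size, with TMM factors), and a fold change is always myeloma over control. The cells carried the defining transcript of their label, with Foxp3 at 1000.4, 991 and 1068 CPM in myeloma and 1248, 1163 and 992 CPM in controls (replicates in the order given above, here and below). In bulk RNA, fewer dividing cells and less of a transcript per cell cannot be told apart.

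In myeloma, 2 of the 52 members were higher and 1 was lower at an adjusted p below 0.05 in edgeR's quasi-likelihood test. Those higher were Cdk4, the kinase partner of D-type cyclins, at 1.31-fold, and Dut, the enzyme that destroys dUTP before it enters DNA, at 1.52-fold. The member that was lower was Cenpa, the histone H3 variant of centromeres, at 0.62-fold. The members were called at 5.77%, against 11.0% of all genes tested (6.33% higher and 4.69% lower). The other 49 did not pass, with edgeR's adjusted p of 0.0633 or more, and 5 members had an unadjusted p below 0.05. Groups did not overlap for 4 members that were higher in myeloma and 1 that was lower, which is 9.62% of members against 33.3% of all genes tested (17.3% higher and 16.0% lower).

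The phases differed in how far libraries of the same group lay apart. The 25 mitotic members together had 309, 362 and 759 CPM in myeloma, against 432, 635 and 612 CPM in controls. In this CPM sum myeloma replicate 5 was above every control and the other myeloma libraries were below every control. Cenpa and Mki67 weigh heavily in it: without them the sums were 156, 193 and 512 CPM in myeloma and 189.7, 355 and 366 CPM in controls, and myeloma replicate 4 lay above control replicate 1. Gene by gene, myeloma replicates 3 and 4 were both below all controls for 8 of 25 mitotic members (32.0%, against 22.5% of all genes tested). The same held for 8 of 19 S-phase members (42.1%) and 0 of 8 G1 members. In TPM the mitotic members had 234, 248 and 467 in myeloma and 329.9, 446 and 473 in controls, so that myeloma replicate 5 was below control replicate 5. The CPM means were 477 ± 246 CPM in myeloma and 559.6 ± 111 CPM in controls (SD, n = 3 each). The 19 S-phase members together had 726, 765 and 1029.6 CPM in myeloma, against 769, 804 and 826 CPM in controls. Here too myeloma replicate 5 was highest, and the controls lay close together. On the TPM scale, which corrects for effective length, that order differed: S-phase members had 512, 518 and 616 TPM in myeloma and 621, 628 and 688 TPM in controls, without overlap. That separation rested on Pcna, with 127, 127 and 143 TPM in myeloma and 173, 216 and 208 TPM in controls. Without Pcna the TPM sums of the groups overlapped. In the fit with an effective-length offset the median log2 fold change of S-phase members was 0.122. The 8 G1 members had 1023, 976 and 1143 CPM in myeloma and 858, 855 and 1060.5 CPM in controls, and the groups overlapped. Ccnd2 weighs heavily in this sum, with 574, 522 and 672 CPM in myeloma and 439, 448 and 584 CPM in controls. In TPM the G1 members had 560, 570 and 557 in myeloma and 549, 538 and 666 in controls, so that control replicate 5 was highest.

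**Figure D1:**
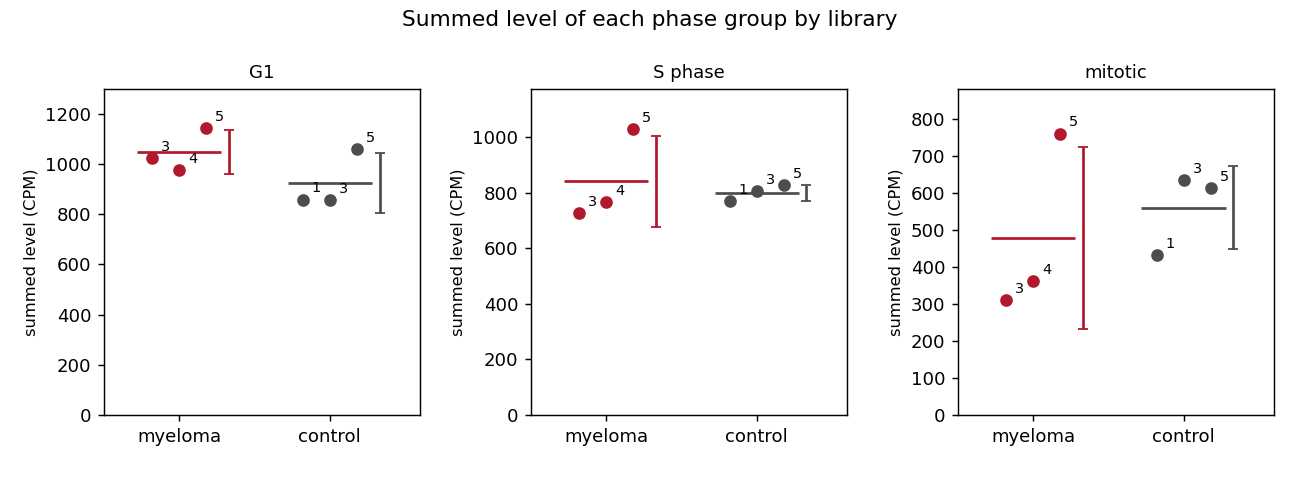
Summed level in CPM of the G1, S-phase and mitotic members in each library, with myeloma left and control right; points are libraries with their replicate number, lines are means and bars are SD (n = 3). Myeloma replicate 5 is the highest mitotic point at 759 CPM, and myeloma replicates 3 and 4 lie lowest at 309 and 362 CPM.

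The median log2 fold change was 0.23 for G1 members, 0.07 for S-phase members and -0.05 for mitotic members, beside 0.02 over all genes tested. Positive and negative values numbered 6 and 2 in G1, 13 and 6 in S phase, and 9 and 16 among mitotic members. The standard error of a member's log2 fold change had a median of 0.18 in G1, 0.17 in S phase and 0.45 among mitotic members, against 0.16 over all genes tested. A mitotic gene had to differ by more than most other members to be called.

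**Figure D2:**
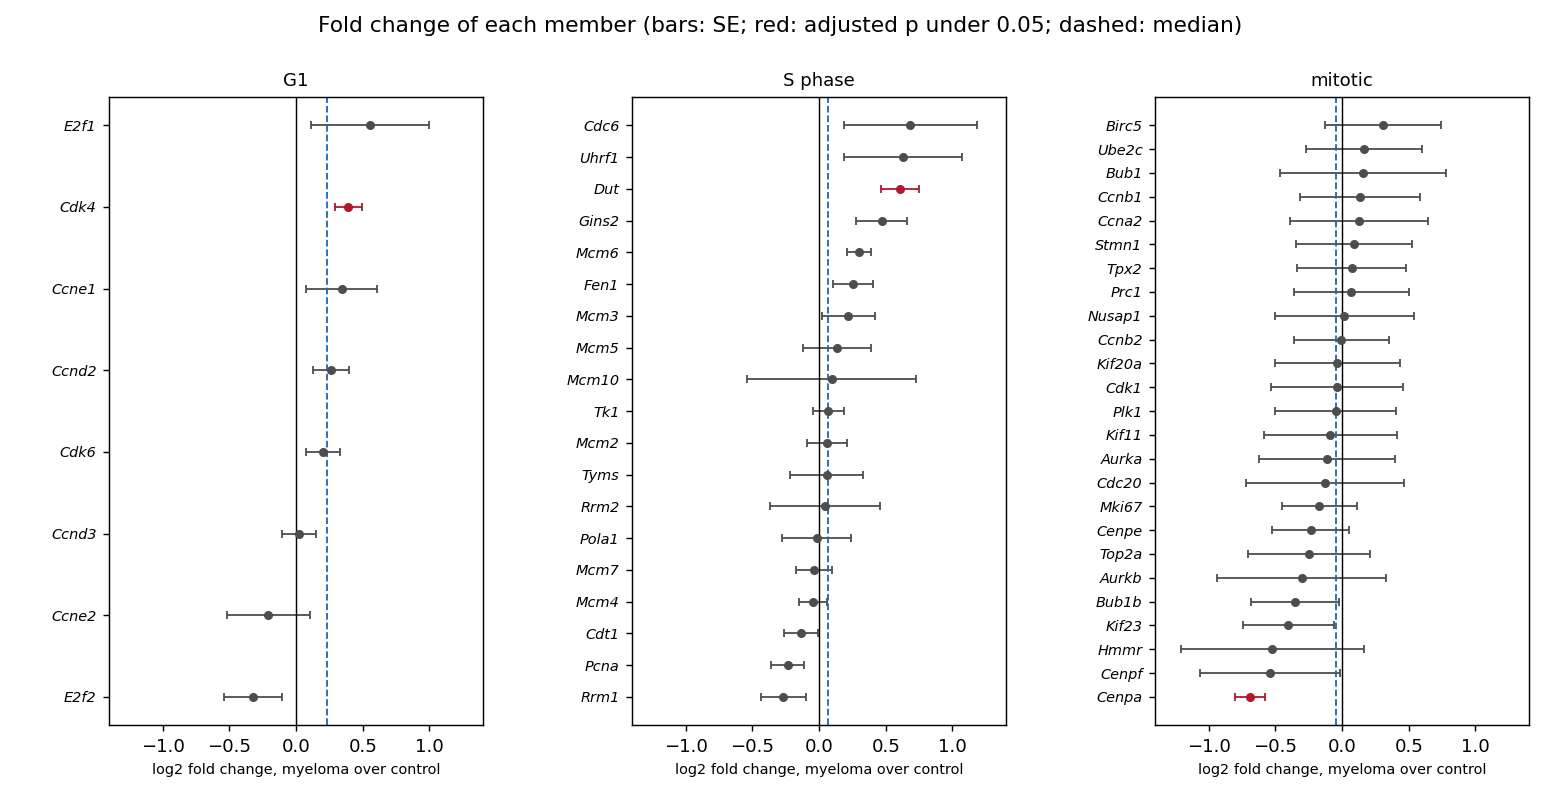
Log2 fold change of each member, myeloma over control, with its standard error, in G1, S phase and mitosis. Red marks the members called at an adjusted p below 0.05 (Cdk4, Dut and Cenpa), and the dashed line is the median of the phase, at 0.23, 0.07 and -0.05.

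Among G1 genes, Cdk4 (chr10:127063534-127067920 in mm10, plus strand) had 89.8, 101 and 107 CPM in myeloma, against 78.6, 80.2 and 68.1 CPM in controls. All myeloma libraries were above all controls (log2 fold change 0.39 with SE 0.10, 95% interval 0.16 to 0.62, edgeR adjusted p = 0.0404). Its call was lost whichever library was left out, with edgeR's adjusted p from 0.0546 to 0.133, and with an effective-length offset (0.0675). Cdk4 shares 641 bases, 19.7% of its exonic sequence, with the tetraspanin gene Tspan31 on the other strand. Tspan31 had 29.4, 29.4 and 29.2 CPM in myeloma and 21.4, 19.1 and 15.9 CPM in controls, and without strand in the library the split of reads between the pair is uncertain.

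The partners of Cdk4 were not called. Ccnd2, the D-type cyclin with the highest CPM here, had 574, 522 and 672 CPM in myeloma, against 439, 448 and 584 CPM in controls. Control replicate 5 lay within the myeloma range (log2 fold change 0.26, 95% interval -0.05 to 0.57). Ccnd3, another D-type cyclin, had 196, 184 and 163 CPM in myeloma, against 172, 151 and 212 CPM in controls, with controls on both sides of the myeloma values and an interval of -0.27 to 0.31. Compared per length, Ccnd3 averaged 219 ± 30.9 TPM in myeloma and 241 ± 33.5 TPM in controls, above Ccnd2 at 158 ± 17.2 TPM in myeloma and 159 ± 35.3 TPM in controls and Cdk4 at 134 ± 9.03 TPM in myeloma and 118 ± 8.81 TPM in controls. On the TPM scale the Cdk4 groups met, with 125.06 TPM in myeloma replicate 4 and 125.52 TPM in control replicate 1. Cdk6, the sister kinase of Cdk4, stood lower, at 13.3 ± 1.24 TPM in myeloma and 13.6 ± 1.15 TPM in controls.

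The genes of late G1 were not called either. E2f1, an activator of replication genes, had 2.45, 2.28 and 5.001 CPM in myeloma and 2.18, 1.98 and 2.47 CPM in controls, on 23 to 56 reads per library. Myeloma replicate 5 stood apart from the 5 other libraries. Ccne1, a cyclin E gene, had 9.06, 10.2 and 11.3 CPM in myeloma and 8.51, 5.58 and 10.02 CPM in controls (log2 fold change 0.34, 95% interval -0.25 to 0.94). Its direction turned with an effective-length offset, to -0.245, and in TPM it averaged 8.42 ± 1.104 TPM in myeloma and 11.8 ± 2.75 TPM in controls. Ccne2, its paralog, averaged 5.86 ± 1.53 CPM in myeloma and 6.75 ± 1.298 CPM in controls. E2f2, a related E2F activator, was more abundant, with 57.4, 63.3 and 77.7 CPM in myeloma, against 58.99, 76.1 and 113 CPM in controls. Control replicate 5 was its highest library (log2 fold change -0.32 with SE 0.22, edgeR adjusted p = 0.369).

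Among S-phase genes, Dut (chr2:125247190-125258608, plus strand) had 32.4, 41.7 and 37.3 CPM in myeloma, against 20.7, 24.7 and 27.7 CPM in controls. Every myeloma library was above every control (log2 fold change 0.61 with SE 0.14, 95% interval 0.28 to 0.93, edgeR adjusted p = 0.0307). The call was lost on leaving out replicate 4 or 5 of myeloma (edgeR adjusted p = 0.111 and 0.0529) or replicate 1 or 3 of the controls (0.0743 and 0.102), and with an effective-length offset (0.0596). Tyms and Tk1, which make thymidylate, were not called. Tyms, thymidylate synthase, averaged 12.2 ± 3.796 CPM in myeloma and 11.7 ± 2.32 CPM in controls, with a 95% interval of the log2 fold change of -0.56 to 0.67. Tk1, thymidine kinase, averaged 30.7 ± 2.96 CPM in myeloma and 29.2 ± 1.08 CPM in controls, with an interval of -0.19 to 0.33.

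The subunits of the MCM2-7 helicase differed among themselves. Mcm6 had 131, 135 and 148 CPM in myeloma, against 120.4, 105 and 111 CPM in controls, without overlap but short of the threshold (log2 fold change 0.30 with SE 0.09, edgeR adjusted p = 0.0633). Mcm5 had 31.9, 41.4 and 71.6 CPM in myeloma, against 38.6, 46.9 and 46.5 CPM in controls, so that its extreme high value came from myeloma replicate 5 and its extreme low value from myeloma replicate 3. Mcm2, Mcm3, Mcm4 and Mcm7 had log2 fold changes of 0.06, 0.22, -0.04 and -0.04, none called. Gins2, a subunit of the GINS complex that works with this helicase, had 29.2, 33.1 and 50.2 CPM in myeloma, against 28.2, 28.8 and 24.3 CPM in controls. Its groups did not overlap (log2 fold change 0.47 with SE 0.19, edgeR adjusted p = 0.152), and 67.3% of its exonic bases are shared with Gse1 on the other strand.

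Pcna, the sliding clamp of DNA polymerases, was the S-phase member with the highest level per length, at 132 ± 9.11 TPM in myeloma and 199 ± 22.8 TPM in controls. In CPM its groups overlapped, with 117, 124 and 143 CPM in myeloma, against 127, 172 and 152 CPM in controls (log2 fold change -0.23 with SE 0.12, edgeR adjusted p = 0.261). By mean TPM over all 6 libraries the next were Mcm6, at 62.6 ± 1.26 TPM in myeloma and 60.1 ± 7.17 TPM in controls, and Mcm7, at 43.5 ± 5.104 TPM in myeloma and 51.3 ± 6.93 TPM in controls, although in myeloma alone Dut was above Mcm7 (Dut averaged 50.4 ± 5.56 TPM in myeloma and 40.8 ± 3.79 TPM in controls). Rrm2, the regulated subunit of ribonucleotide reductase, had 12.4, 14.1 and 42.8 CPM in myeloma, against 19.04, 23.2 and 24.8 CPM in controls. Uhrf1, which brings the maintenance DNA methyltransferase to new DNA, had 11.3, 14.5 and 42.1 CPM in myeloma, against 11.00, 15.5 and 17.3 CPM in controls. For both genes myeloma replicate 5 lay far above the 5 other libraries. Cdc6, which loads the helicase at origins, had 2.29, 3.37 and 7.95 CPM in myeloma and 3.12, 3.18 and 2.18 CPM in controls, and Mcm10, which helps to activate it, had 0.677, 1.98 and 4.91 CPM in myeloma and 2.42, 2.49 and 2.18 CPM in controls. They had the same high library, and Mcm10 had only 8 reads in myeloma replicate 3.

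**Figure D3:**
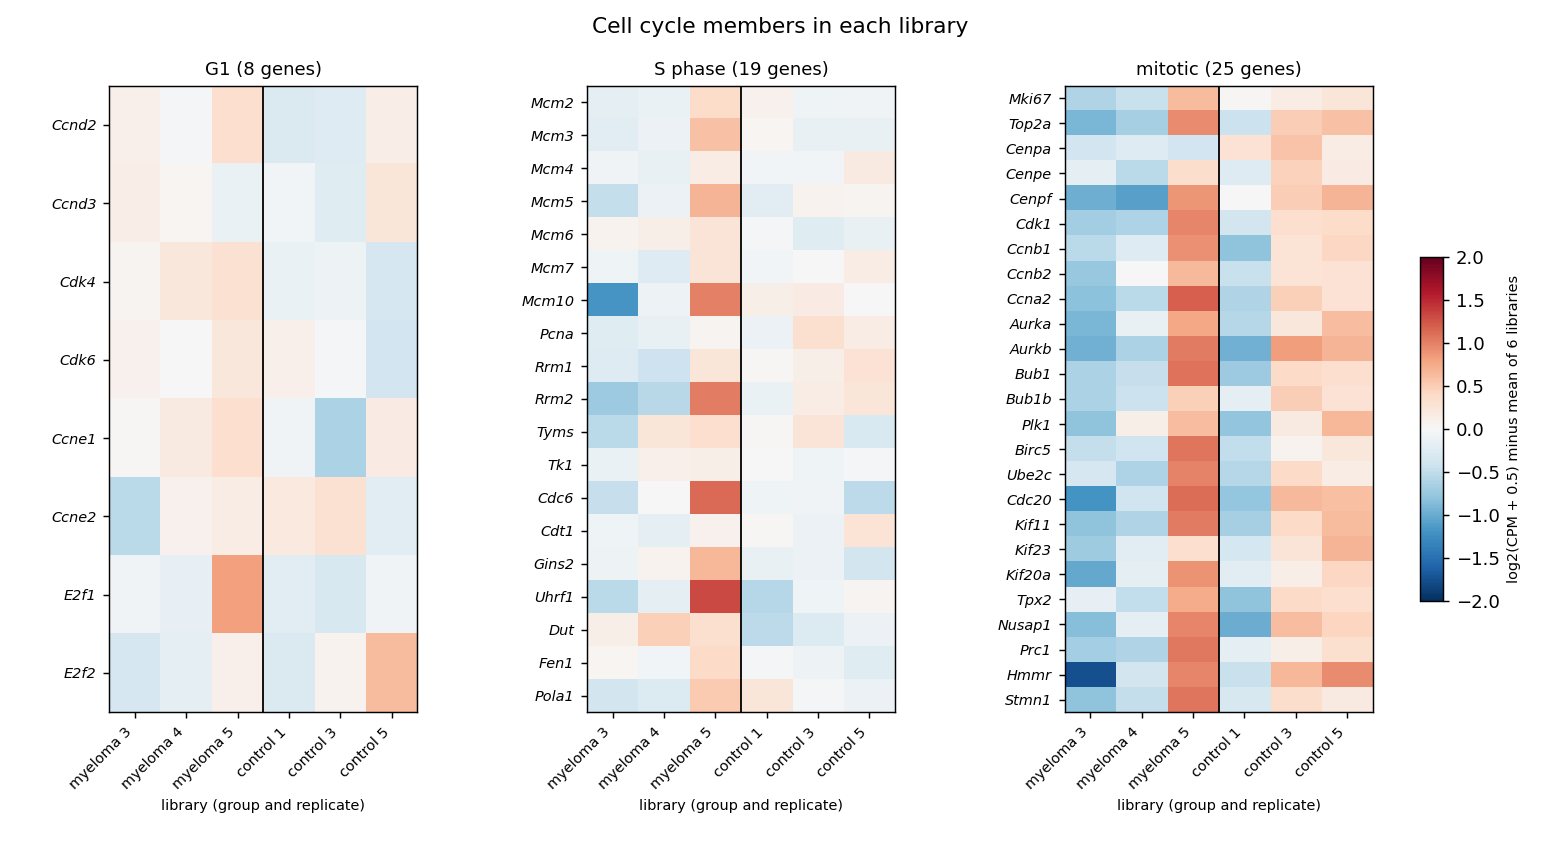
Each member's log2(CPM + 0.5) in each library minus its mean over the 6 libraries, with myeloma libraries left and controls right. Most mitotic genes are high in myeloma replicate 5 and low in myeloma replicate 3 (lowest of the 6 libraries for 16 of 25), whereas Cenpa is low in all myeloma libraries.

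Most mitotic genes shared their highest myeloma library and their lowest control library, while the order of the other libraries varied by gene. Myeloma replicate 5 was the highest myeloma library for 24 of 25 mitotic members (96.0%), and nearly as often for S-phase members (18 of 19, 94.7%) and G1 members (7 of 8, 87.5%), where the share over all genes tested was 37.1%. Control replicate 1 was the lowest control library for 24 of 25 mitotic members (96.0%), 7 of 19 S-phase members (36.8%) and 2 of 8 G1 members (25.0%), where the share over all genes tested was 35.6%. The mitotic exception in both counts was Cenpa. Between the highest and the lowest myeloma library, the other 24 members differed by 1.91-fold to 9.49-fold, and 23 of them by more than 2-fold. The median of this ratio was 3.51 over all mitotic members, 1.59 over S-phase members, 1.27 over G1 members and 1.28 over all genes tested. The members were measured in the same libraries, so these counts are a description of 6 libraries and carry no test.

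Mki67, the gene of the proliferation marker Ki-67, had 68.3, 76.4 and 163 CPM in myeloma, against 106, 116 and 124 CPM in controls. The controls lay between the myeloma libraries (log2 fold change -0.17 with SE 0.28, 95% interval -0.80 to 0.46). Top2a, the topoisomerase that untangles sister chromatids, had 23.02, 27.7 and 84.9 CPM in myeloma, against 32.6, 62.02 and 66.2 CPM in controls. Cdk1, the kinase that starts mitosis, had 3.64, 3.87 and 12.8 CPM in myeloma, against 4.68, 7.99 and 8.13 CPM in controls, with an interval of -1.15 to 1.08. Its cyclin partner Ccnb1 had 6.08, 7.54 and 17.5 CPM in myeloma, against 4.96, 11.1 and 12.2 CPM in controls. In all of them myeloma replicate 5 was the highest library. The interval of Cdk1 holds a 2-fold change in either direction, so these data do not show that its level was alike in both groups.

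The spindle and exit genes below had that same highest myeloma library and lowest control library. Cdc20, which activates the anaphase-promoting complex, had 3.56, 6.55 and 19.6 CPM in myeloma, against 4.92, 14.00 and 13.6 CPM in controls. Aurkb, the kinase of the chromosomal passenger complex, had 2.88, 3.77 and 13.04 CPM in myeloma, against 2.89, 11.3 and 10.1 CPM in controls. Bub1b, a spindle checkpoint gene, had 6.43, 7.44 and 14.4 CPM in myeloma, against 8.97, 14.5 and 12.6 CPM in controls. Myeloma replicates 3 and 4 lay far below myeloma replicate 5 in each. The kinesin gene Kif23, of the central spindle, had 6.43, 9.23 and 13.8 CPM in myeloma, against 8.35, 12.97 and 17.6 CPM in controls. Cenpf, a kinetochore gene, had 3.56, 3.28 and 14.2 CPM in myeloma, against 7.57, 10.7 and 12.3 CPM in controls. Stmn1, which encodes the microtubule-destabilising protein stathmin, had 15.7, 19.8 and 59.3 CPM in myeloma, against 22.1, 35.5 and 31.6 CPM in controls. Groups overlapped for all of these genes and none was called: the 24 mitotic members other than Cenpa had edgeR adjusted p values of 0.487 or more.

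Cenpa (chr5:30666777-30674830, plus strand) departed from them. It had 84.99, 92.8 and 84.2 CPM in myeloma, against 136, 164 and 123 CPM in controls. The highest myeloma value was 1.10-fold the lowest, all lay below every control, and myeloma replicate 5 was the lowest. The log2 fold change was -0.69 with SE 0.11 (95% interval -0.95 to -0.43, edgeR adjusted p = 0.00817), and the call held whichever library was left out. Per length it was the most abundant mitotic member, at 90.97 ± 10.4 TPM in myeloma and 148 ± 4.09 TPM in controls, ahead of Stmn1 at 48.1 ± 32.6 TPM in myeloma and 53.1 ± 11.2 TPM in controls.

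**Figure D4:**
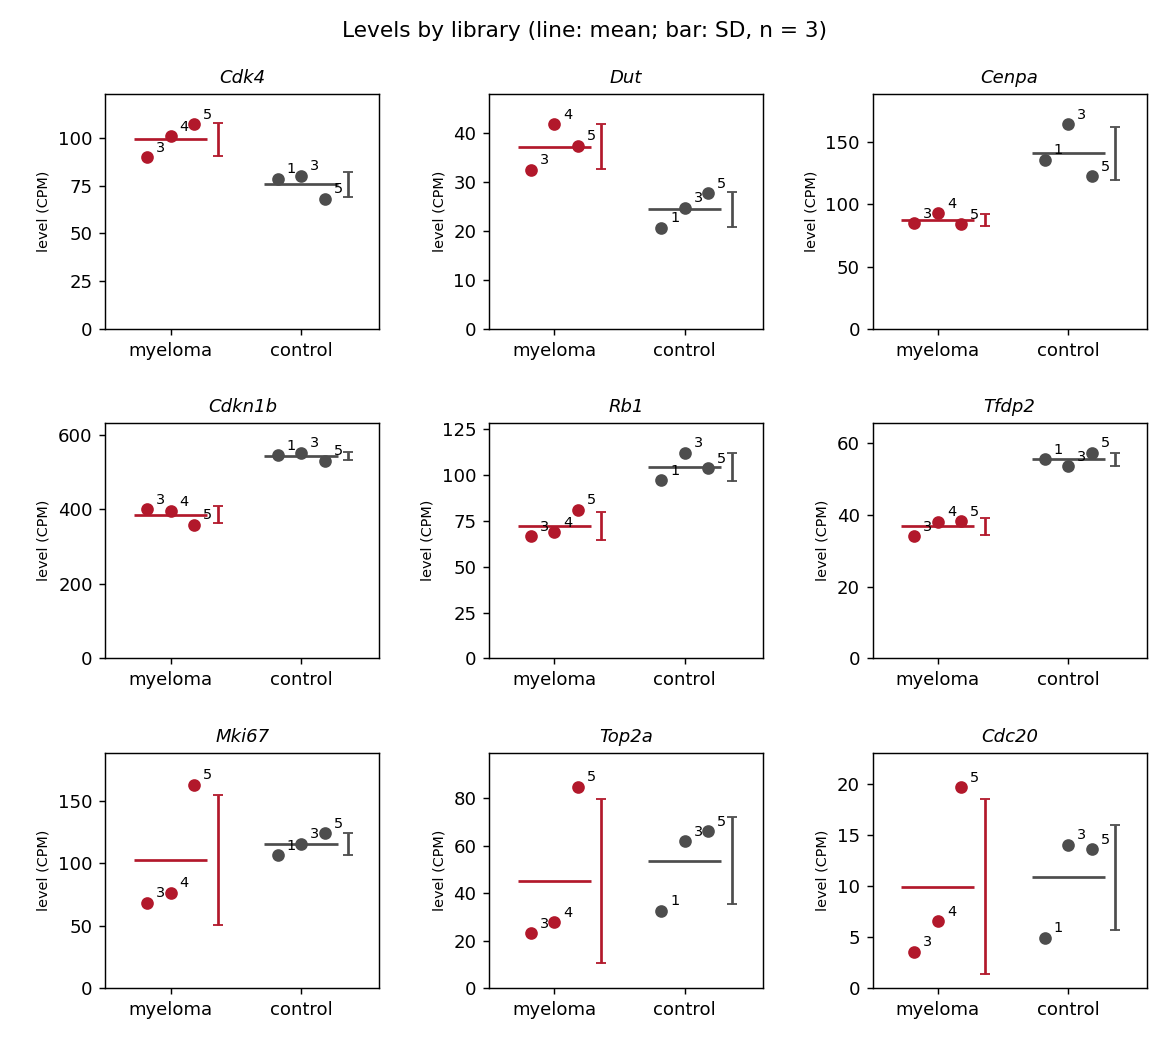
Level in CPM by library for selected members and regulators, with myeloma left and control right; points carry replicate numbers, lines are means and bars are SD (n = 3). Cdk4, Dut and Cenpa separate by group, whereas for Mki67, Top2a and Cdc20 myeloma replicate 5 is the highest point and myeloma replicates 3 and 4 lie low.

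Leaving out myeloma replicate 5 changed the mitotic result. It was the highest myeloma library for 24 of 25 mitotic members, so the downward direction of that change was set by which library was dropped. The members moved together through the same libraries, so their number adds no weight. In that fit all 25 mitotic members had negative log2 fold changes, with a median of -0.75, and 7 members were called lower and 0 higher by edgeR, where 4.02% of all genes were lower and 6.15% higher. These were Mki67 (log2 fold change -0.68), Cenpf (-1.58), Cenpa (-0.67), Top2a (-1.09), Prc1 (-0.77), which bundles microtubules of the central spindle, and the ribonucleotide reductase genes Rrm2 (-0.77) and Rrm1 (-0.50). With any other library left out, Cenpa was the single member called lower. The mitotic median was -0.36 without control replicate 1. It was 0.25 without myeloma replicate 3 and 0.095 without myeloma replicate 4. Without control replicates 3 and 5 it was 0.011 and 0.127. The S-phase median ran from -0.15 without myeloma replicate 5 to 0.29 without myeloma replicate 3. The G1 median lay between 0.11 and 0.29 in these 6 fits.

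**Figure D5:**
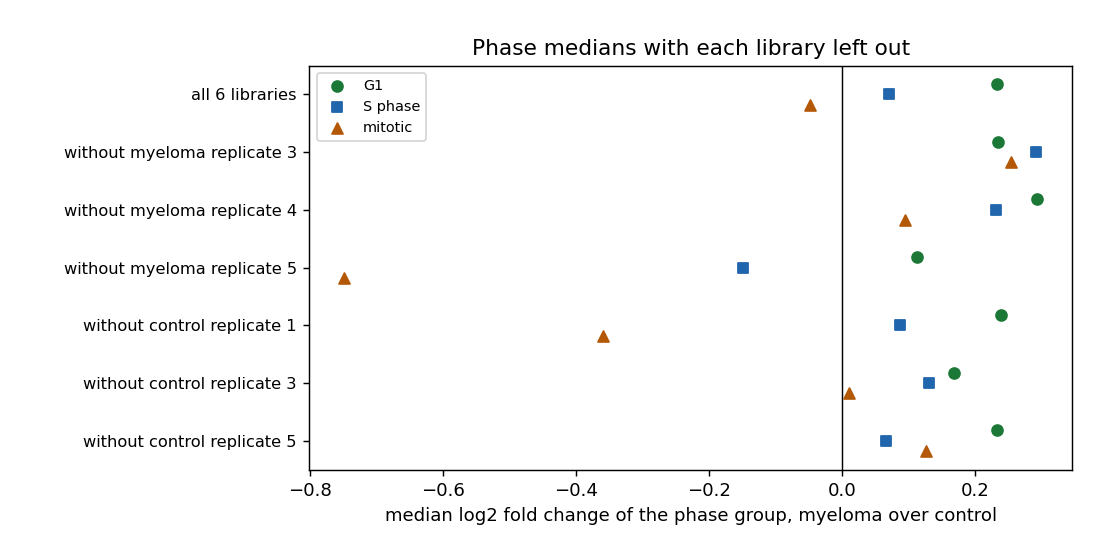
Median log2 fold change, myeloma over control, of G1, S-phase and mitotic members with all 6 libraries and with each library left out in turn. The mitotic median moves between -0.75 and 0.25 and the S-phase median between -0.15 and 0.29, while the G1 median is above 0 in all fits.

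Transcripts of other marrow cells differed among the same libraries. Counts of markers whose groups did not overlap are given below beside 17.3% higher and 16.0% lower over all genes tested, and several, such as 1 of 6 or 1 of 9, are no larger than that. Markers of macrophages and monocytes had a summed level of 56.0, 141 and 454 CPM in myeloma and 103, 39.2 and 75.0 CPM in controls, and 2 of 8 were higher in myeloma without overlap. For plasma cell markers the sums were 283, 386 and 539 CPM in myeloma and 220.04, 198 and 145 CPM in controls, with 3 of 8 higher without overlap. Most of the control sums came from Xbp1, Prdm1 and Irf4, with means of 63.8, 69.0 and 48.3 CPM in controls. Their means in myeloma were 83.5, 115 and 53.9 CPM. Whether the sorted cells themselves made these transcripts was not tested, so the control sums are not a measure of plasma cell RNA. Jchain, Sdc1, Mzb1, Derl3 and Tnfrsf17 averaged 2.66, 1.10, 2.26, 0.637 and 0 CPM in controls. In myeloma they averaged 118, 11.8, 16.3, 2.89 and 0.611 CPM. Stem and progenitor markers were at 2.62, 2.38 and 11.2 CPM in myeloma and 4.21, 4.12 and 5.74 CPM in controls, with 0 of 6 free of overlap. Myeloma replicate 5, the library with the highest mitotic sum in CPM though not in TPM, was highest in all 3 lists and also for markers of natural killer cells (9.20 CPM, 1 of 6 higher without overlap) and CD8 T cells (22.4 CPM, 1 of 2). B lineage markers were at 26.1, 37.2 and 69.7 CPM in myeloma and 42.1, 197 and 236 CPM in controls, with 1 of 9 lower without overlap. Erythroid markers were at 3868, 4795 and 4215 CPM in myeloma and 6738, 14757 and 10391 CPM in controls, with 5 of 9 lower and 1 higher without overlap. For both lists replicate 1 was the lowest control, as for the mitotic genes. Granulocyte precursor markers were highest in myeloma replicate 4, with 108, 363 and 312 CPM in myeloma and 139.7, 46.3 and 122 CPM in controls, and 3 of 9 higher without overlap. No marker of these lists was at 0 in all 6 libraries. Their part in the mitotic and S-phase levels was not tested.

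Promoters of mitotic and replication genes are known to carry different sequence elements. A few are shown because the mitotic members other than Cenpa shared their highest myeloma library and their lowest control library. RefSeq promoter windows (GRCm38.p6, 250 bases before to 50 bases after the start) were matched for 43 of the 52 members. In many mitotic genes the cell cycle homology region (CHR), searched as TTTGAA or TTCGAA, works beside CCAAT boxes, searched as CCAAT. Replication genes often carry E2F sites, searched as TTTCCCGC, TTTGGCGC, TTTCGCGC or TTTGCCGC. All were searched on both strands. CHR and CCAAT letters occurred together in 17 of 21 mitotic windows (81.0%), 2 of 20 S-phase windows, 1 of 8 G1 windows (12.5%) and 7.52% of all 32851 promoter windows. An E2F sequence was found in 8 of 20 S-phase windows (40.0%), 1 of 21 mitotic windows, 1 of 8 G1 windows and 2.26% of all windows. Shown are Cenpa (chr5:30666636-30666935, plus strand), the cyclin B gene Ccnb2 (chr9:70421505-70421804, minus strand), Cdc20 (chr4:118437294-118437593, minus strand) and, for S phase, Mcm6 (chr1:128359656-128359955, minus strand). Capitals mark CHR, CCAAT and E2F letters on either strand.
Cenpa: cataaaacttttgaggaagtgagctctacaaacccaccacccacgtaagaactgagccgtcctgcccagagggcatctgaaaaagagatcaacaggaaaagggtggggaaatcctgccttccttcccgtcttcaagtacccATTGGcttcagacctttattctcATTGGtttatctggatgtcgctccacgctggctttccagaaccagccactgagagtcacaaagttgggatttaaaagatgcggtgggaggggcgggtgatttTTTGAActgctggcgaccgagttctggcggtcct
Ccnb2: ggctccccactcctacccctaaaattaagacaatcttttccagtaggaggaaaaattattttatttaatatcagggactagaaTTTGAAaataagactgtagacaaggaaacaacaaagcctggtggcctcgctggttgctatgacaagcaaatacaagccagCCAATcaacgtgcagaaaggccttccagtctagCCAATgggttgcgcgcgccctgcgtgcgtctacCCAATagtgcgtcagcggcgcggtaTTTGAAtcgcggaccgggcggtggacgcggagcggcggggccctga
Cdc20: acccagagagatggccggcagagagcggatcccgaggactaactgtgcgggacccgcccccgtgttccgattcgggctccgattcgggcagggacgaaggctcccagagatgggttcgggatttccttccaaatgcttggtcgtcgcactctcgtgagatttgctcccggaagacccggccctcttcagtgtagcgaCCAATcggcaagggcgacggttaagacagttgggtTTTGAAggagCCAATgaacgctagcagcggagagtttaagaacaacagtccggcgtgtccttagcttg
Mcm6: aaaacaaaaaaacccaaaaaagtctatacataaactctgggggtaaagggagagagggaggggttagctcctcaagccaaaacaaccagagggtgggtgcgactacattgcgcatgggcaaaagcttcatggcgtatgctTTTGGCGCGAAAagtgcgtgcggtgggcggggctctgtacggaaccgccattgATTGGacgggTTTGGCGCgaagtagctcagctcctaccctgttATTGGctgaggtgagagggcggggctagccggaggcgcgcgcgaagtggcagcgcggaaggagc
Positions are counted from the start of transcription. In the Cenpa window a TTTGAA begins at 16 and inverted CCAAT boxes at -109 and -86. The windows of Birc5, Ccnb1, Cenpe and Nusap1, which had the shared highest myeloma and lowest control library, held no CHR letters. Whether these letters bear on the differences between libraries was not tested. In Ccnb2, TTTGAA begins at -167 and at 4 and CCAAT boxes at -87, -54 and -21, and in Cdc20 a TTTGAA begins at -18 and CCAAT boxes at -53 and -8. Mcm6 holds E2F letters at -110, -106 and -47, of which the first pair overlap on opposite strands, and inverted CCAAT boxes at -57 and -14. These are letter matches and not evidence of binding.

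A further 95 cell cycle genes in 4 lists were examined, of which 93 were tested. Of these, 2 were higher and 7 lower in myeloma, a share of 9.68% against 11.0% of all genes tested. Among 8 CDK inhibitors, of which 6 were tested, 1 was lower and the median log2 fold change was -0.26. This was Cdkn1b, the gene of p27, with 400.4, 396 and 359 CPM in myeloma, against 546, 552 and 531 CPM in controls. The groups stood well apart (log2 fold change -0.50 with SE 0.08, edgeR adjusted p = 0.00847). Cdkn1a, the gene of p21, had 5.16, 6.05 and 7.59 CPM in myeloma and 6.63, 12.6 and 2.98 CPM in controls, and both the lowest and the highest value came from controls.

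Among 22 genes of the retinoblastoma, E2F and DREAM machinery, 2 were lower and 0 higher, with a median of -0.03. Groups did not overlap for 3 genes that were higher in myeloma and 3 that were lower, beside 17.3% higher and 16.0% lower over all genes tested. Rb1, the retinoblastoma gene itself, had 66.7, 68.9 and 81.1 CPM in myeloma, against 97.2, 112 and 104 CPM in controls (log2 fold change -0.53 with SE 0.10, edgeR adjusted p = 0.0138). Tfdp2, a dimer partner of E2F factors, had 34.03, 38.2 and 38.2 CPM in myeloma, against 55.6, 53.7 and 57.4 CPM in controls (log2 fold change -0.60 with SE 0.09, edgeR adjusted p = 0.00672). For both genes every myeloma library was below every control. Myc, whose product drives cell growth, had 71.02, 69.5 and 80.8 CPM in myeloma and 84.1, 88.6 and 55.2 CPM in controls and was not called. Rb1 was no longer called when myeloma replicate 3 (0.0532), myeloma replicate 4 (0.0619) or control replicate 3 (0.0684) was left out, by edgeR's adjusted p, while Cdkn1b and Tfdp2 kept their calls in all 6 such fits.

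Among 30 further replication genes, 1 was higher and 2 were lower (median log2 fold change 0.08). Rfc3, a subunit of the clamp loader that places PCNA on DNA, was higher, with 19.1 ± 1.25 CPM in myeloma and 13.04 ± 0.867 CPM in controls (log2 fold change 0.55). Rfc1, the large subunit of the same loader, was lower, with 39.05 ± 4.89 CPM in myeloma and 55.2 ± 1.18 CPM in controls (-0.50). Dbf4, the activator of the origin kinase CDC7, was also lower, with 23.4 ± 2.104 CPM in myeloma and 32.3 ± 1.98 CPM in controls (-0.47). Among 35 further mitotic genes, 1 was higher and 2 were lower (median -0.04). Pttg1, the gene of securin, which guards sister chromatid cohesion, was higher, with 68.6, 72.4 and 55.8 CPM in myeloma, against 46.9, 47.2 and 43.9 CPM in controls (log2 fold change 0.51, edgeR adjusted p = 0.0226). Smc4, a condensin subunit, was lower, with 656, 664 and 604 CPM in myeloma, against 969, 849.8 and 884 CPM in controls (log2 fold change -0.49, edgeR adjusted p = 0.0128). Cdc25b, a phosphatase that activates CDK1, was lower, with 129, 111 and 153 CPM in myeloma, against 166, 208 and 222 CPM in controls (log2 fold change -0.60, edgeR adjusted p = 0.0289). In each of these 3 genes the groups did not overlap. Across the 6 fits that left out a library, edgeR's adjusted p ran from 0.0768 to 0.139 for Rfc3, 0.00951 to 0.0798 for Rfc1, 0.0458 to 0.1395 for Dbf4, 0.00731 to 0.0889 for Pttg1 and 0.0144 to 0.105 for Cdc25b, so that Rfc3 lost its call in all 6, Pttg1 in 5 and the others in 4 each, myeloma replicates 3 and 4 and control replicate 3 among them. Smc4 kept its call in all 6.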

How the data were processed

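RNA from sorted CD4+ FOXP3-GFP+ marrow cells was isolated using RNeasy Micro columns, and libraries were made by NEBNext Ultra chemistry, per the labels' protocols. Strand is not kept by that chemistry. The submitters' processing notes list Picard, STAR, RSEM and DESeq2 together with build mm10, without versions or settings. Each library has a table of 47643 genes. The authors' expected counts are RSEM estimates of reads per gene without normalization, per the file headers. The deposited TPM and FPKM values correct those estimates for length and depth, per the file headers. TPM served to compare genes with each other, and FPKM was not used. Effective lengths in the tables served in 1 alternative.

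Ensembl IDs gave gene names (47224 of 47643 matched), and positions follow GENCODE M21 on GRCm38, counted from 1. After rounding, expected counts went through filterByExpr (minimum count 10, minimum total 15), TMM and the quasi-likelihood F test of edgeR 4.0.16 in R 4.3.3, with Benjamini-Hochberg adjustment over 13235 genes and a threshold of 0.05. The alternatives were RLE factors, library sizes alone, no filter, effective lengths as an offset, DESeq2 (1.42.0), limma-voom (3.58.1), leaving out 445 genes (immunoglobulin, haemoglobin or mitochondrial), a block for the replicate number, and leaving out each library. The script was tested on simulated data, in which changes of small size were mostly missed.

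The design text counts 3 marrows per group. Nothing else ties a library to a mouse, so p-values measure the spread between libraries. The members, phases and lists were chosen with earlier results of these data known. Named members are those called, in each phase the 4 with the smallest p and the 3 with the highest mean TPM, and a chosen set of well-known genes. From other lists, called genes with the smallest p are named (up to 4 per list and direction), with Cdkn1a, Cdkn1b, Rb1 and Myc. Other members named as examples, and Tspan31, were chosen after their values were seen. RSEM divides reads that overlapping genes share, and 13 members share exonic bases with a protein-coding gene on the other strand.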

Additional observations from a re-analysis of the deposited data

How the results depend on the processing

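Cenpa was called lower under every setting tried. With 2 members higher and 1 lower by edgeR's quasi-likelihood test, the number higher was 1 with library sizes alone (Cdk4 lost, adjusted p = 0.064), 0 with the effective-length offset (Cdk4 0.0675, Dut 0.0596) and 0 with the replicate block (Cdk4 0.185, Dut 0.181). With no low-count filter it was 4 higher and 2 lower, the additions being Gins2, Uhrf1 and E2f2. When 1 library was left out, 0 to 1 members were higher and 1 to 7 lower. The replicate block rests on numbers 3 and 5, which nothing in the labels ties to a shared mouse or day. Deviations of same-numbered libraries correlated at 0.0295 and 0.0974, and those of other pairs at -0.0812 to 0.0483. Under the block 362 genes were higher and 142 lower, against 838 and 621 without it, and Cdkn1b (0.0552), Tfdp2 (0.0566), Smc4 (0.0759), Rb1 (0.0867), Pttg1 (0.114), Dbf4 (0.122), Rfc1 (0.135) and Rfc3 (0.229) lost their calls. The effective-length offset ended the calls of Dbf4 (0.0511), Tfdp2 (0.0734), Rfc1 (0.0939), Rb1 (0.106) and Rfc3 (0.275), and with library sizes alone the split over all genes was 633 higher and 1004 lower. Rfc3 also lost its call with library sizes alone (0.0667), no filter (0.0855) and DESeq2 (0.0835). Each phase median moved by less than 1 SD between libraries in all settings. That SD was 0.121 in G1, 0.222 in S phase and 0.721 among mitotic members. It includes the spread due to myeloma replicate 5, so it cannot judge the removal of that library and is a loose measure for the other settings. In S phase the SD of the library medians was 0.313 in myeloma and 0.022 in controls. The S-phase and mitotic medians changed sign between settings while staying within this SD. Without myeloma replicate 3 they were 0.292 and 0.254. Without myeloma replicate 5 the G1 median went from 0.233 to 0.113 and the S-phase median from 0.071 to -0.148. The mitotic median went from -0.048 to -0.749. The log2 fold change of some uncalled genes changed sign, that of Ccne1 from 0.342. With library sizes alone Ccnd3 was at -0.052 and Mcm2 at -0.018. With limma-voom Stmn1 was at -0.13 and Cdkn1a at 0.031. With the effective-length offset Ccne1 was at -0.245, Mcm7 at 0.005 and Myc at 0.011. With the block Ccnb1 was at -0.15, Ccnd3 at -0.002, Mcm7 at 0.022, Stmn1 at -0.089 and Myc at 0.11. With 1 library left out, Ccnd3 ran from -0.086 to 0.16, Cdk1 from -0.89 to 0.25, Mki67 from -0.68 to 0.041, Top2a from -1.09 to 0.061, Mcm7 from -0.20 to 0.067, Ccnb1 from -0.48 to 0.40, Mcm2 from -0.15 to 0.15, Stmn1 from -0.75 to 0.40, Myc from -0.24 to 0.081 and Cdkn1a from -0.63 to 0.38. The cause of these changes was not tested. Mitotic members with few reads, down to 12 for Hmmr, limit what a fold change can show.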
